A study of Mus musculus with 474 samples.

Results

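A set of 10 genes of the mouse Hox clusters A and B was followed in single daughters of haematopoietic stem cells (HSCs): Hoxa5, Hoxa6, Hoxa7, Hoxa9, Hoxa10, Hoxb2, Hoxb3, Hoxb4, Hoxb5 and Hoxb8. They were chosen by name, as rows of the deposited count tables, and make up 10 of 55450 genes there. Of the 10, 6 had counts and 4 were listed at 0 in every cell. Wild-type HSCs came from bone marrow (strain C57BL/6JRj, males, 12 to 19 weeks of age) and were imaged in culture until they first divided. Their daughters were picked one by one and sequenced with Smart-seq2, a plate method that reads whole polyadenylated transcripts, followed by Nextera libraries. All cells analysed are such daughters, and no untreated, freshly isolated or mutant group was analysed here. Most belong to divisions with 1 daughter labelled high and 1 labelled low for the lysosomes it received, 11 to 38 divisions in each of 9 culture experiments, and 68 cells had no sequenced sister (39 high and 29 low). The experiments fall into 2 sequencing runs, with 4 in run 5 and 5 in run 4.

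Hox genes encode homeodomain transcription factors that lie in clusters, and their order along the chromosome follows where along the body they act in the embryo. In adult blood, genes of clusters A and B are most active in stem and early progenitor cells and are shut down as cells mature. Their proteins bind DNA together with the TALE homeodomain proteins Pbx and Meis, the MLL histone methyltransferase complex keeps the clusters active, and Polycomb complexes repress them.

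The Hoxb8 promoter is shown because Hoxb8 was called as shared by sisters, as were its neighbours Hoxb7 and Hoxb9. The Hoxb4 promoter is shown because Hoxb4 lies in the same cluster and was not called as shared. The Hoxa9 promoter is shown because Hoxa9 was the member found in the most cells. Each window runs from 250 bases before to 50 bases after the start (RefSeq, GRCm38.p6) and is written 5′ to 3′ on the gene's strand. Capitals mark TTTATNG, the motif of CDX factors, which drive Hox clusters in the embryo, and CCAAT, the motif of NF-Y, on either strand. The windows are chr11:96281655-96281954 (plus strand) for Hoxb8, chr11:96318017-96318316 (plus strand) for Hoxb4 and chr6:52227321-52227620 (minus strand) for Hoxa9.
Hoxb8: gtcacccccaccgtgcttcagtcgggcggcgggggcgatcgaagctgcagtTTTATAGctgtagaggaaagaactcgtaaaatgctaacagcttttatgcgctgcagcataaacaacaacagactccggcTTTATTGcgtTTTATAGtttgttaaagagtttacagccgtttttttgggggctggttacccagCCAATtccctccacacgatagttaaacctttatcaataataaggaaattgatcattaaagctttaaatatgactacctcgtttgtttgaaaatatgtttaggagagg
Hoxb4: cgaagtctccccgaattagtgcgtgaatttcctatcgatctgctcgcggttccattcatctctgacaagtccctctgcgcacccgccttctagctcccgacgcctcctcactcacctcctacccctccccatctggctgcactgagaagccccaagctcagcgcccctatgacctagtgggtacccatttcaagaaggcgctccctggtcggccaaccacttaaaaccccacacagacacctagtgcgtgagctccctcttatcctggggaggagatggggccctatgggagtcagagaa
Hoxa9: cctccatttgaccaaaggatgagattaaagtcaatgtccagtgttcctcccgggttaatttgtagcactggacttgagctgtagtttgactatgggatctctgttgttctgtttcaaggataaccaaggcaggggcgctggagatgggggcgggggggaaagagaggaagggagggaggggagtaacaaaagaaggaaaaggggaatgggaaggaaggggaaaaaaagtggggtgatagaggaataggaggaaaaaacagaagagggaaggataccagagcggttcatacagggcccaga

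The Hoxb8 window held 3 matches to TTTATNG, 2 of which overlap a match to TATAAA, and 1 match to CCAAT. Of 32851 windows of the same length, 10.9% held TTTATNG at least once and 0.0639% held it 3 or more times, while 37.4% held CCAAT. The CDX motif was searched after the Hoxb8 window had been seen. None of the windows of Hoxa5, Hoxa6, Hoxa7, Hoxa9, Hoxa10 and Hoxb4 held TTTATNG, and none of the 8 windows held CACGTG (7.15% of all windows) or TGATTNAT, the joint site of Hox and Pbx proteins (3.22%). The Hoxb8 window had the lowest share of G and C of the 8 windows, 42.3%, against 49.7% for Hoxa9. Cdx1, Cdx2 and Cdx4 together had counts in so few cells that the most frequent of them reached 0.844%.

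Depth lay between 76735 and 2444858 gene counts in a cell (median 846198). Levels are given as CPM, a gene's counts scaled to the total of its cell, and 1 count at the median depth equals 1.18 CPM. Reads carry no molecular identifiers, so intervals on shares of cells cover counting error only. All 10 HSC markers examined (Mecom, Hlf, Procr, Slamf1, Ly6a, Kit, Fgd5, Vwf, Esam and Ctnnal1) had counts in at least 20% of cells, with a median share of 90.5%. Of the markers of other blood and stromal cells, the most widely found were a myeloid marker in 74.1% of cells, a megakaryocyte marker in 69.6% and an erythroid marker in 63.1%, and the 5 lymphoid markers were at 0 or in up to 2.11%. Experiment 72, in run 5, stood apart for Hoxb3.

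The 6 genes with counts differed widely in how many cells they were found in. Hoxa7, Hoxa9 and Hoxa10 were found in most cells, Hoxb4 and Hoxb3 in some and Hoxb8 in few, while Hoxa5, Hoxa6, Hoxb2 and Hoxb5 were listed at 0. Hoxa9, a driver of HSC self-renewal and of leukaemia when overexpressed (ENSMUSG00000038227, chromosome 6, 52223100 to 52231089, minus strand), had a count in 95.99% of cells (exact 95% interval 93.8 to 97.6), with an experiment low of 91.7%, a median of 95.9% and a high of 100%. Its mean level over experiments ran from 45.1 CPM through a median of 54.3 CPM to 69.1 CPM.

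Hoxa7, its neighbour (ENSMUSG00000038236, chromosome 6, 52214491 to 52221854, minus strand), was found in 91.6% of cells, and its experiment means ran from 28.8 through 36.5 to 43.3 CPM. Hoxa10, which promotes progenitor growth when overexpressed (ENSMUSG00000000938, chromosome 6, 52231197 to 52240854, minus strand), was found in 83.3% of cells with experiment means of 12.8, 17.4 and 23.7 CPM at the lowest, median and highest. In each of the 9 experiments at least 75% of cells had a count of each of these genes.

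The Hoxb genes were sparser. Hoxb4, known for expanding HSCs when overexpressed (ENSMUSG00000038692, chromosome 11, 96318267 to 96321638, plus strand), was found in 63.9% of cells (59.4 to 68.3), with a lowest experiment mean of 3.68 CPM, a median of 5.25 CPM and a highest of 8.34 CPM. Hoxb3, the next gene of the cluster (ENSMUSG00000048763, chromosome 11, 96323326 to 96347930, plus strand), was found in 33.3% (29.1 to 37.8), with experiment means of 1.52, 2.80 and 7.87 CPM at the lowest, median and highest. The highest of these was experiment 72, and the other 8 lay at or below 3.62 CPM.

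Hoxb8, whose forced activity holds myeloid progenitors undifferentiated (ENSMUSG00000056648, chromosome 11, 96281905 to 96285315, plus strand), was found in 12.0% of cells (9.24 to 15.3). Its experiment means ran from 0.0654 CPM through a median of 1.05 CPM to 1.18 CPM, and a cell with Hoxb8 had a median of 3 counts. A level this close to that of 1 count leaves cells with little Hoxb8 below detection.

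**Figure D1:**
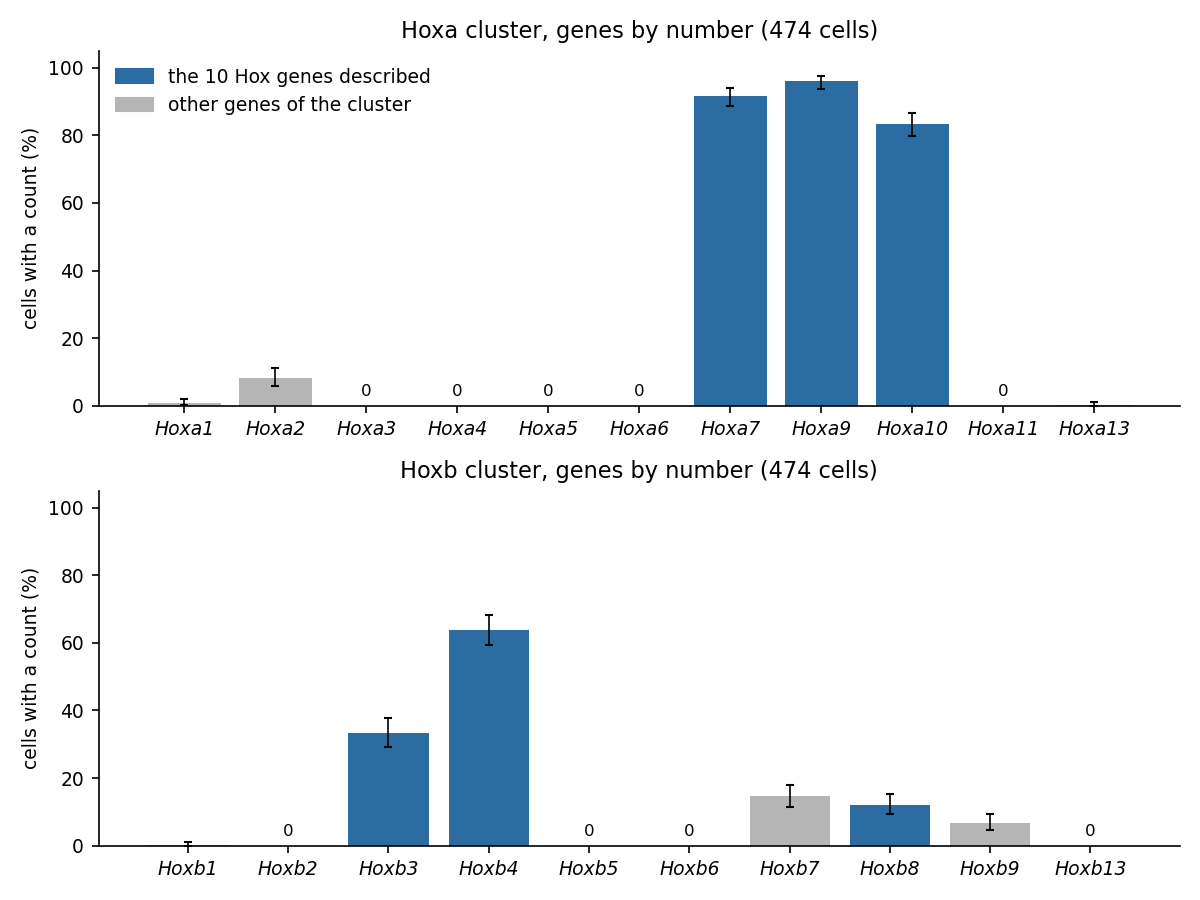
Share of all cells with at least 1 count (y axis, percent) for each gene of the Hoxa cluster (top) and the Hoxb cluster (bottom), ordered by gene number, with exact 95% intervals where a count was seen; blue bars are the 10 Hox genes described and grey bars the other genes of the same cluster. Hoxa7, Hoxa9 and Hoxa10 form a block above 80%, Hoxb3 and Hoxb4 stand at 33.3% and 63.9%, and Hoxb7, Hoxb8 and Hoxb9 form a low block of 14.6%, 12.0% and 6.75%.

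Per kilobase of annotated exon, the mean level over experiments was 12.6 ± 1.84 CPM for Hoxa7, 9.82 ± 1.38 for Hoxa9, 5.50 ± 1.10 for Hoxa10, 2.12 ± 0.518 for Hoxb4, 0.761 ± 0.431 for Hoxb3 and 0.312 ± 0.152 for Hoxb8 (SD, n = 9). In this order, Hoxa7 and Hoxa9 overlapped within 1 SD, as did Hoxb3 and Hoxb8. The protocol does not mark strand, and 2250 of the 4251 exon bases of Hoxb3 are shared with the antisense gene Hoxb3os, so reads of the pair cannot be told apart there. The level of Hoxb3 was divided by all 4251 bases, so its place in this order and its overlap with Hoxb8 are uncertain. Hoxa7 shares 586 of 2876 exon bases with Hoxaas3.

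Hoxa5 and Hoxa6 of the Hoxa cluster, and Hoxb2 and Hoxb5 of the Hoxb cluster, were listed at 0 in every cell. Hoxb5 marks long-term HSCs in the mouse. Genes that nearly every cell uses were listed at 0 as well, among them B2m, Cox4i1, Eif3m, Rpl13, Rpl35 and Psmb10, so a listing at 0 does not speak to whether the gene was transcribed. All 1877 exon bases of Hoxa5 and all 874 of Hoxa6 are free of other annotated genes, as are 2686 of 2786 for Hoxb5 and 2535 of 3488 for Hoxb2. Of the other 29 Hox genes of the 4 clusters, 19 were likewise listed at 0, and none reached 20% of cells. Hoxb7 was the most frequent of them at 14.6%, and Hoxb5os, a noncoding RNA beside Hoxb5, was found in 50.4% of cells.

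Most cells had counts of several of these genes. Of the 6 with counts, a cell had a count of 4 in 36.3% of cells, of 3 in 26.2%, of 5 in 22.6% and of all 6 in 4.01%. All 3 Hoxa genes were present in 75.5% of cells, while 26.6% had none of Hoxb3, Hoxb4 and Hoxb8. No count of any of the 6 was found in 2 cells. Depth moved with these numbers: cells above the median depth had on average 3.98 of the 6 genes and the other cells 3.62. With every cell thinned to 200000 counts, which left out 13 shallower cells, the shares were 94.4% for Hoxa9, 85.9% for Hoxa7, 71.4% for Hoxa10, 44.7% for Hoxb4, 20.8% for Hoxb3 and 8.03% for Hoxb8, in the same order as before. In the same cells unthinned they were 96.3%, 91.5%, 83.3%, 65.1%, 34.1% and 12.4%.

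Levels were then correlated across all cells, as Pearson's r of log2(CPM + 1) after centring on experiment and plate. These values are descriptions: the cells share libraries, depth and cultures. Over the 15 pairs of the 6 genes the median r was 0.06, against a median of 0.03 between these genes and every gene found in at least 20% of cells. The 3 pairs within the Hoxa cluster had a median of 0.07, the 3 within the Hoxb cluster 0.07, and the 9 across clusters 0.01. With every such gene, the medians were 0.04 for Hoxa7, 0.05 for Hoxa9 and 0.03 for Hoxa10. They were 0.03 for Hoxb3, 0.01 for Hoxb4 and 0.02 for Hoxb8. With depth and the number of detected genes taken out, the median over the 15 pairs was 0.0238, and it was 0.0398 with cell cycle scores taken out, 0.0240 on log2(CPM + 10) and 0.0333 as Spearman's rho. Without experiment 60, 68 or 69 it was 0.0379, 0.0336 or 0.0347.

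The highest pair was Hoxa7 with Hoxa9, at r = 0.21, which was above 99.8% of the genes set against Hoxa7. It was positive in 8 of 9 experiments, was 0.29 between division means and 0.16 between the differences of sisters, and was 0.19 with cell cycle scores regressed out and 0.17 with depth and detected genes regressed out. The next pairs were Hoxb3 with Hoxb4 at 0.09 and Hoxa7 with Hoxa10 at 0.07. The lowest were Hoxa10 with Hoxb8 at -0.04 and Hoxa9 with Hoxb3 at -0.02. No pattern is read from values this small, which were not tested.

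Hoxb8 went with its neighbours in the cluster, Hoxb7 and Hoxb9, which were singled out after their values were seen. Of 57 cells with Hoxb8, 27 also had Hoxb7 and 22 also had Hoxb9. Independence, with sisters counted as separate cells, would give 9.45 and 4.85 cells. The observed numbers also count sisters separately. The 27 and 22 cells are 47.4% and 38.6% of the cells with Hoxb8, 39.1% of the 69 cells with Hoxb7 and 68.8% of the 32 cells with Hoxb9. The correlations were 0.33 with Hoxb7 and 0.46 with Hoxb9, whereas Hoxb8 reached 0.07 with Hoxb3 and 0.06 with Hoxb4. None of the exon bases of Hoxb7, Hoxb8 and Hoxb9 is shared with another annotated gene. Cells with Hoxb8 had a median of 831714 counts and 10137 detected genes, and cells without it 846542 counts and 9807 detected genes.

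**Figure D2:**
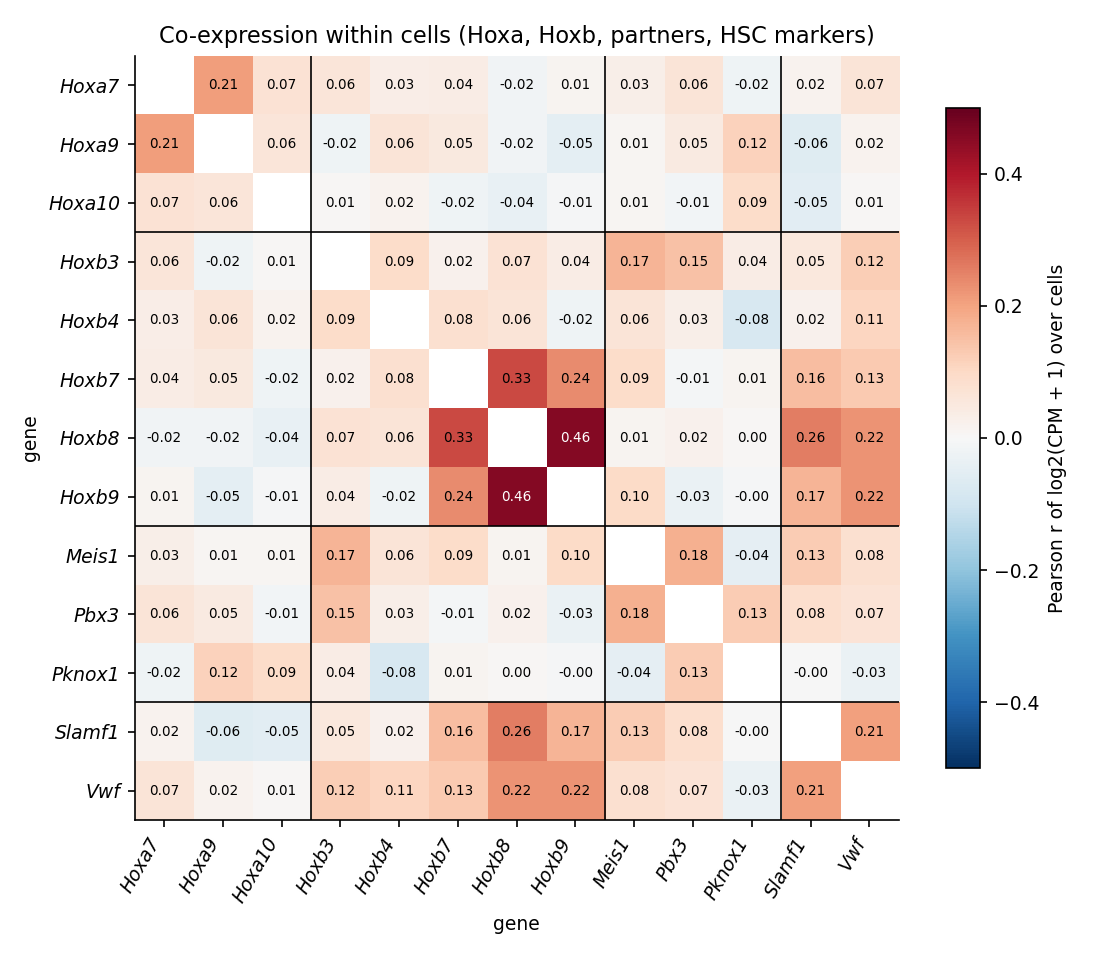
Pearson r of log2(CPM + 1) over all cells, centred on experiment and plate, between Hox genes, the Hox partners Meis1, Pbx3 and Pknox1, and the HSC markers Slamf1 and Vwf (both axes: genes; colour and number: r; black lines separate the groups). The darkest cells off the diagonal are Hoxb8 with Hoxb9 (0.46) and with Hoxb7 (0.33), and within the Hoxa genes Hoxa7 with Hoxa9 (0.21).

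The genes most like Hoxb8, among 15608 found in at least 5% of cells, were Hoxb9, Hoxb7, Tm4sf1 (r = 0.27), Slamf1 (0.26), Palld (0.23), Cysltr2 (0.22), Vwf (0.22) and Selp (0.22). Slamf1 encodes CD150, an HSC surface marker, and Vwf and Selp encode von Willebrand factor and P-selectin, proteins of platelets that a share of HSCs also express. All 10 HSC markers correlated positively with Hoxb8, with a median r of 0.11 against 0.02 for all genes. For Hoxa7 all 10 were positive too, with a median of 0.11 against 0.03, for Hoxb4 9 were (0.09 against 0.01), for Hoxb3 8 (0.06 against 0.03), for Hoxa9 8 (0.02 against 0.03) and for Hoxa10 4 (-0.02 against 0.02).

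Slamf1 averaged 19.1 CPM in the 57 cells with Hoxb8 and 6.91 CPM in the cells without, and was found in 63.2% of cells with Hoxb8 and 23.98% of cells without. Vwf averaged 159.8 CPM in cells with Hoxb8 and 63.8 CPM in cells without. Kit, which progenitors also carry, averaged 1013 CPM in cells with Hoxb8 and 1043 CPM in cells without. Slamf1 and Vwf were each higher in the cells with Hoxb8 in 6 of 9 experiments and Kit in 3. These comparisons were made after the correlations had been seen and have no test.

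For the 3 members with the highest mean level, genes with the most similar pattern among 11745 were Srsf6 (r = 0.28), Ythdf1 (0.27), Ndufa7 (0.27) and Arhgap11a (0.25) for Hoxa9, then Ifngr2 (0.25), Trp53i11 (0.23), Sesn1 (0.23), Hdac9 (0.23) and Ubl7 (0.23) for Hoxa7, and Ahcy (0.22), Elp6 (0.21), Gm5580 (0.21), Slc39a6 (0.20) and Dck (0.20) for Hoxa10. Each was positive in 6 to 9 of the 9 experiments. With the Hox partners, Hoxb3 had an r of 0.17 with Meis1 and of 0.15 with Pbx3, which were among the highest values. The number of detected genes per cell had an r of 0.24 with Hoxb3, 0.22 with Hoxa9 and 0.12 with Hoxb8. Its part in the correlations was tested only for the pairs of members.

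Sisters were compared next, which asks how alike the daughters of one HSC still are. The measure was the intraclass correlation of log2(CPM + 1), near 1 where sisters differ little compared with divisions and near 0 where sisters differ as much as unrelated cells. P-values come from an F test over divisions, which share cultures, with Benjamini-Hochberg adjustment over all genes and a threshold of 0.05. Among 11699 genes found in at least 20% of the paired cells, 3084 (26.4%) passed, with a median of 0.0858. Of the 5 Hox genes in this test none passed.

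Hoxa10 had an intraclass correlation of 0.150 (95% interval 0.0110 to 0.283, adjusted p = 0.0607), Hoxa9 one of 0.121 (-0.0176 to 0.256, adjusted p = 0.118) and Hoxa7 one of 0.113 (-0.0260 to 0.249, adjusted p = 0.139). Hoxb3 stood at 0.0655 (-0.0739 to 0.203, adjusted p = 0.307) and Hoxb4 at -0.0402 (-0.178 to 0.0996, adjusted p = 0.780). The intervals of Hoxa7 and Hoxa9 include 0 and that of Hoxa10 starts just above it, and all 3 include the value of the median gene. Hoxa10 passed with a pseudocount of 10 (0.160, adjusted p = 0.0441, where 27.9% of genes passed). It also passed without experiment 73 (0.170, adjusted p = 0.0447, where 25.6% passed) or experiment 77 (0.176, adjusted p = 0.0437, where 24.1% passed). Hoxa7 passed when scored as found or not found (0.197, adjusted p = 0.0246, where 12.9% of genes passed).

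The divisions show this in counts. Hoxa9 was found in both daughters of 92.6% of divisions, in the high daughter alone in 7 divisions, in the low daughter alone in 7 and in neither in 1. Hoxa10 was found in both daughters of 70.4% of divisions, in the high daughter alone in 33, in the low daughter alone in 19 and in neither in 8. Hoxb4 was in both daughters of 80 divisions where independence gives 82.9, and Hoxb3 in both of 24 where it gives 24.2. A cell whose sister had Hoxb4 thus had it in 62.5% of cases, against 63.1% of all paired cells.

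Hoxb8 was shared. It was found in 9.85% of paired cells, under the 20% minimum, and entered the test with a minimum of 5%, where 3295 of 15479 genes (21.3%) passed. Its intraclass correlation was 0.477 (0.363 to 0.578, adjusted p = 1.87e-11). There were 9 divisions with Hoxb8 in both daughters, 10 with it in the high daughter alone and 12 with it in the low daughter alone, and 84.7% of divisions had it in neither, where independence gives 2.46 with both. A cell whose sister had Hoxb8 had it in 45% of cases. The F test assumes normally distributed values, which a gene at 0 in most cells does not give, so its p-values are rough here. Scored as found or not found, the value was 0.396 (adjusted p = 1.50e-07, where 10.6% of genes passed). That score has the same limit, since it used the same F test, and was added after the first value was seen.

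The 9 divisions with Hoxb8 in both daughters came from 6 experiments. In the clearest of them, in experiment 76, the high daughter had 14 counts (16.6 CPM) and the low daughter 34 counts (29.3 CPM). In experiment 77 the high daughters of both such divisions had 12 and 4 counts and their low sisters 4 and 10. At the other end, a division of experiment 73 had 2 counts in the high daughter and 1 in the low daughter. Other divisions also had 1 or 2 counts in a daughter. Their high and low daughters had 24 and 1 counts in experiment 60 and 7 and 2 in experiment 74. Another of experiment 76 had 1 and 8, and those of experiment 72 had 1 and 2, and 2 and 14. Most of the 9 divisions thus rest on 1 or 2 counts in a daughter. The 18 cells of these divisions had a median of 6.76 CPM, and the 22 cells that had Hoxb8 without their sister a median of 3.13 CPM. Hoxb7 or Hoxb9 was found in at least 1 daughter of 8 of the 9 divisions, and of 17 of the 22 in which 1 daughter had Hoxb8. Both daughters had Hoxb7 or Hoxb9 in only 4 of the 9 and 7 of the 22. Over all divisions, 76.8% had Hoxb7 in neither daughter and 89.2% had Hoxb9 in neither.

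**Figure D3:**
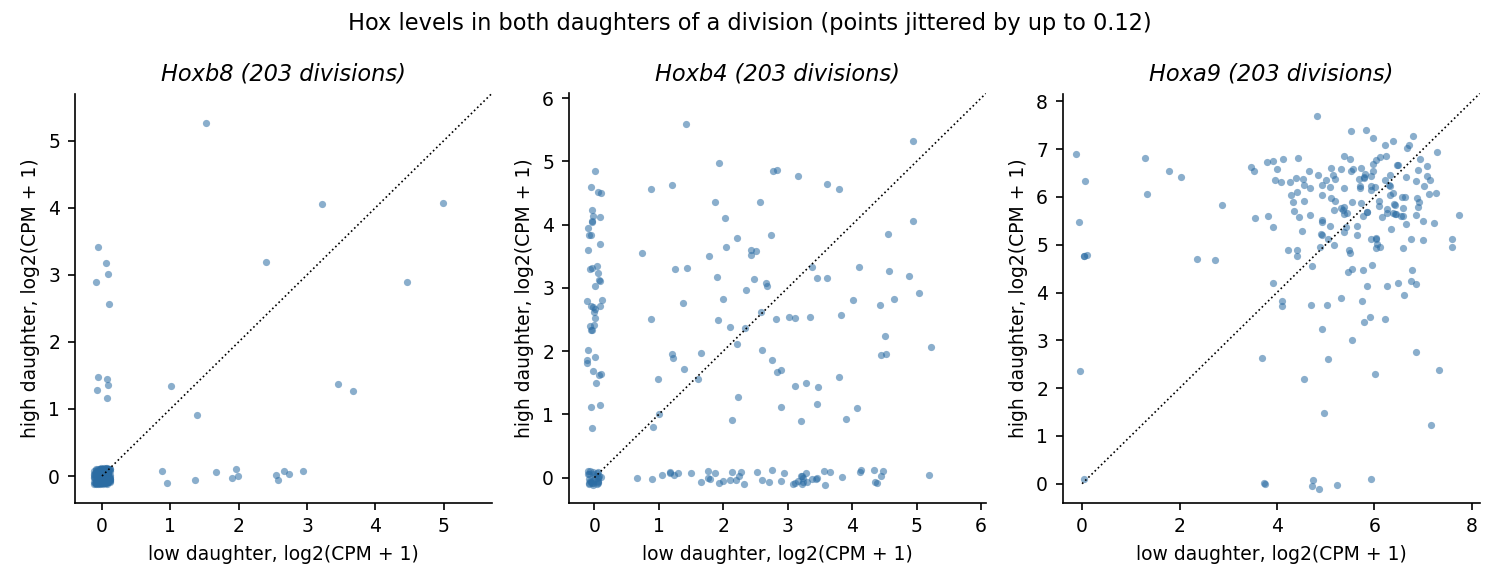
Level of Hoxb8, Hoxb4 and Hoxa9 in the high daughter (y axis, log2(CPM + 1)) against its low sister (x axis, same scale), one point per division, jittered; the dotted line marks equal levels. Hoxb8 has 9 divisions off both axes and 84.7% at the origin, Hoxb4 fills both axes with 44 divisions in the high daughter alone and 52 in the low daughter alone, and Hoxa9 forms one cloud.

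Sisters lay in adjacent wells in all but 2 divisions, so unrelated cells in adjacent wells were paired in the same way. Hoxb8 then had an intraclass correlation of 0.0561 (-0.105 to 0.216, adjusted p = 0.840), and 0.375% of genes passed. With cell cycle scores regressed out the sisters' value was 0.484 (adjusted p = 4.57e-11, where 9.78% of genes passed). It was 0.370 in run 5 alone (adjusted p = 0.0169, 8.29% of genes) and 0.515 in run 4 alone (adjusted p = 4.00e-09, 17.1% of genes). These checks, and the one on adjacent wells for Hoxb8, were added after the value of Hoxb8 was seen. Within single experiments the sisters' value ran from -0.0529 through a median of 0.399 to 0.786 and was above 0 in 7 of 9. In experiment 75, where it was 0, a single paired cell had Hoxb8.

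Hoxb7 and Hoxb9 had intraclass correlations of 0.182 (0.0448 to 0.314, adjusted p = 0.0273) and 0.175 (0.0370 to 0.307, adjusted p = 0.0349). The value of Hoxb9 was 0.00193 without experiment 76. Hoxb7 was in both daughters of 6 divisions where independence gives 3.99, and Hoxb9 in both of 3 where it gives 1.12. Whether Hoxb8 differs from either was not tested. Hoxb8 was also more frequent among cells without a sequenced sister (25% of 68) than among paired cells (9.85%). That difference was seen in the data and not tested.

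**Figure D4:**
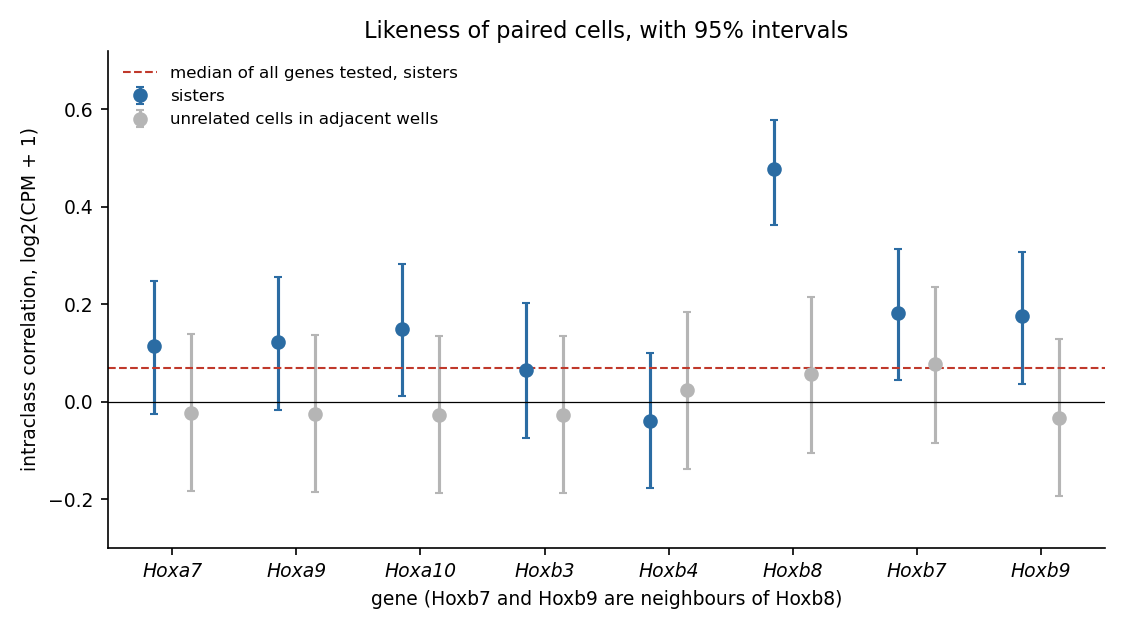
Intraclass correlation of log2(CPM + 1) (y axis) with 95% intervals for Hox genes (x axis) between sisters (blue) and between unrelated cells in adjacent wells (grey); the dashed line is the sisters' median over all 15479 genes tested. The sisters' value of Hoxb8, 0.477, lies far above the line and above its own grey value of 0.0561, and the other blue intervals of the 6 genes reach the line.

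Genes that act on or with Hox were tested alongside. Of 7 TALE genes in the 20% test 2 passed (28.6%), of 14 genes of the MLL complex and its partners 7 (50%) and of 15 Polycomb genes 4 (26.7%), against 26.4% of all genes. The TALE and Polycomb shares are near that of all genes, and whether the MLL share differs from it was not tested. All these calls were for positive values. The highest were the Polycomb methyltransferase Ezh2 (0.446), the TALE genes Pknox1 (0.344) and Meis1 (0.340), the MLL complex subunit Dpy30 (0.332) and the Polycomb cofactor Jarid2 (0.279). Meis1 was found in every cell.

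The daughters labelled high and low for lysosomes were compared as sums of counts per experiment. The question is whether the daughter that received more lysosomes differs in Hox expression. No gene of 15854 passed at an adjusted p of 0.05 in edgeR (0%), so no Hox gene did. Of all genes 658 (4.15%) had an unadjusted p under 0.05, and DESeq2 called 5 of 14072 genes (0.0355%), none of them a Hox gene.

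Hoxb3 came closest. It had 1.02 CPM at the lowest, 2.37 CPM at the median and 6.56 CPM at the highest in high daughters over the 9 experiments, against 2.01, 3.48 and 12.4 CPM in low daughters. The ranges overlapped, yet the high daughters were below their low sisters in 9 of 9 experiments. The log2 difference, high minus low, was -0.72 ± 0.27 (SE, 95% interval -1.31 to -0.13, unadjusted p = 0.0201, adjusted p = 0.999). Of the genes tested, 26 (0.164%) were lower in high daughters in all 9 experiments. The share of cells with Hoxb3 was 32.5% of high and 31.5% of low daughters, and 1 low cell, in experiment 72, held 93.1 CPM and 15.99% of the Hoxb3 counts of low daughters. Without its division the difference was -0.53 ± 0.32 (interval -1.22 to 0.16, unadjusted p = 0.119). With divisions in place of experiments, the mean difference of log2(CPM + 1) between sisters was -0.12 ± 0.14. That is another scale than the log2 difference of sums, so the sizes cannot be compared directly.

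The intervals of the other genes all included 0. Hoxa7 had a median of 34.4 CPM in high daughters (24.4 to 38.7) and 39.6 CPM in low daughters (22.8 to 48.7), a log2 difference of -0.14 ± 0.11 (interval -0.39 to 0.10). Hoxa9 had a median of 54.8 CPM in high daughters (45.3 to 70.6) and 57.9 CPM in low daughters (46.5 to 67.3), a log2 difference of -0.01 ± 0.08 (interval -0.18 to 0.15). In both genes the ranges of the high and low daughters overlapped.

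Hoxa10 stood at a median of 20.5 CPM in high daughters and 18.6 CPM in low daughters, with a log2 difference of -0.01 ± 0.19 (interval -0.43 to 0.41). It was found in 86.7% of high and 79.8% of low daughters. Hoxb4 stood at 5.53 CPM in high daughters and 4.96 CPM in low daughters, with a log2 difference of 0.12 ± 0.27 (interval -0.46 to 0.69). Hoxb8 averaged 0.654 CPM over high and 0.646 CPM over low daughters, and the interval of its log2 difference, -2.46 to 3.02, was too wide for any reading. Whether the difference itself varied with the run was tested by an interaction, which called no gene (0%), and 672 genes (4.24%) had an unadjusted p under 0.05, no Hox gene among them.

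**Figure D5:**
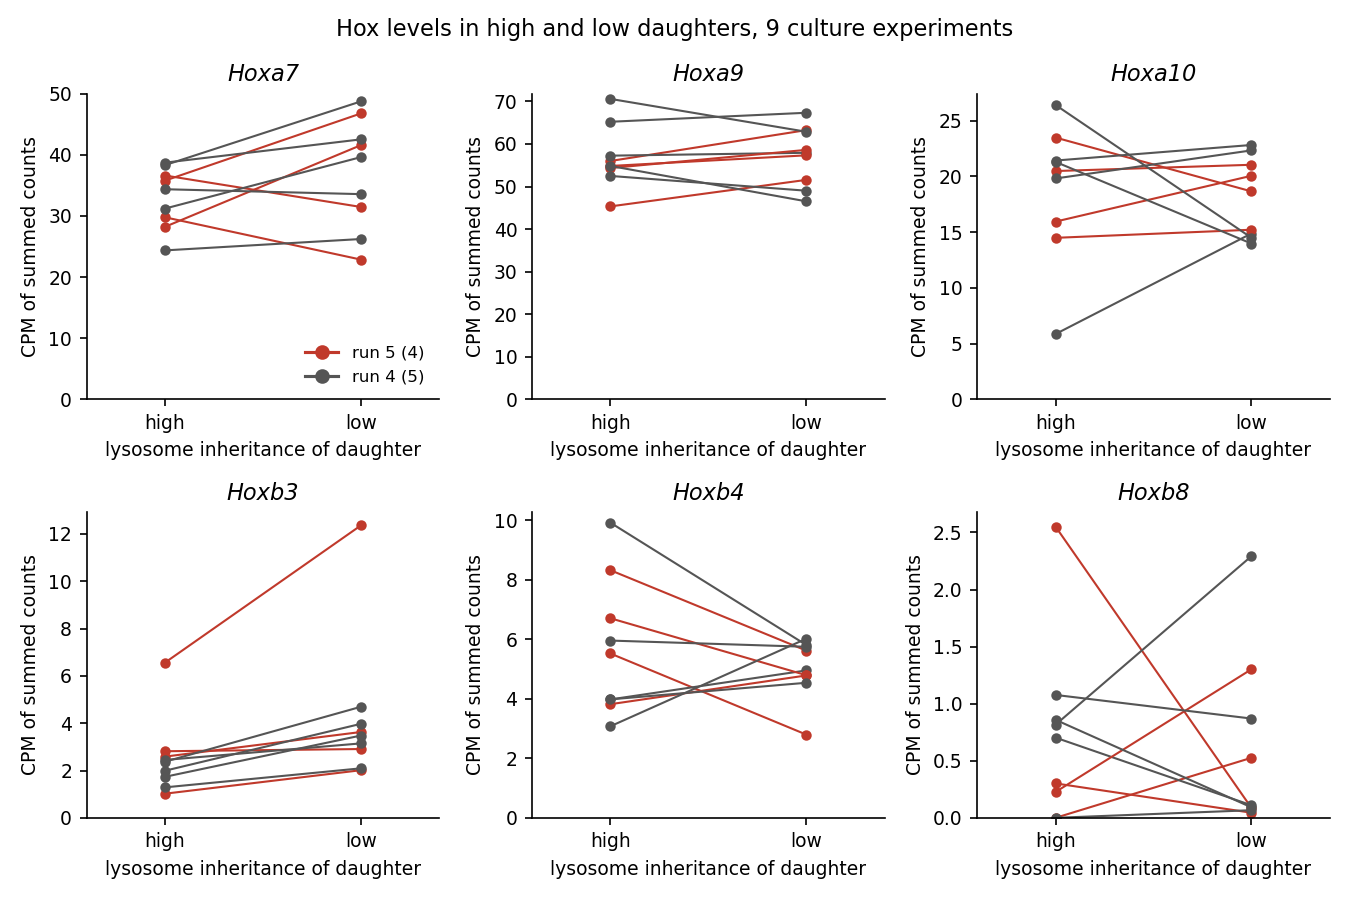
CPM of the summed counts (y axis, linear, from 0) in high and low daughters (x axis) for 6 Hox genes; each line joins both sums of 1 culture experiment, red for run 5 (4 experiments) and grey for run 4 (5 experiments). All 9 lines of Hoxb3 are lower in the high daughters, the topmost being experiment 72 (6.56 and 12.4 CPM), while lines of the other genes cross.

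The runs held different experiments, so run and experiment group cannot be told apart. No gene of 15269 passed between run 5 and run 4 in edgeR (0%), with 1621 genes (10.6%) at an unadjusted p under 0.05, and DESeq2 called 96 genes (0.59%), none a Hox gene. Hoxb3 averaged 4.12 ± 2.57 CPM in the 4 experiments of run 5 and 2.53 ± 0.606 CPM in the 5 of run 4 (SD), a log2 difference of 0.72 ± 0.42 (adjusted p = 0.520). Without experiment 72 the log2 difference was 0.22 (adjusted p = 0.894). Hoxa9 averaged 51.6 ± 4.41 CPM in run 5 and 57.3 ± 9.23 CPM in run 4, a log2 difference of -0.13 ± 0.12 (adjusted p = 0.702).

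In the inheritance fit, no TALE, MLL complex or Polycomb gene passed either. The median log2 difference, high minus low, was -0.01 over the 8 TALE genes tested, -0.01 over the 14 genes of the MLL complex list, -0.01 over the 15 Polycomb genes, -0.01 over the 6 Hox genes and 0.00 over all genes. The smallest unadjusted p among them belonged to the Polycomb subunit Phc2, with 0.30 ± 0.08 (adjusted p = 0.999).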

How the data were processed

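Single-cell mRNA of HSC daughters was analysed from gene-level read counts that the authors deposited. The counts are raw, and featureCounts (Subread 1.5.0) and SAMtools are named in the submitters' processing notes. Aligner and build: not given in the sources used here. Gene IDs, 55450 of 55450, matched GENCODE M21 (GRCm38), the source of symbols and positions. Other values in the deposited metadata, per the file headers, are labels of experiment, division, well and lysosome inheritance; 171 count columns were not used. Every cell passed a minimum of 50000 counts and 1000 genes. P-values measure the spread between 9 cultures, or between divisions for sisters.

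Sums per experiment and label were tested with edgeR 4.0.16 (TMM, filterByExpr, quasi-likelihood test blocked by experiment) in R 4.3.3, with Benjamini-Hochberg adjustment over all genes. DESeq2 1.42.0 and limma 3.58.1, on differences between sisters, were alternatives. Intraclass correlations used log2(CPM + 1) centred on experiment and plate, over genes found in at least 20% of paired cells. Both procedures were run on simulated data. For the intraclass correlation these were normally distributed values, without the many zeros of a gene such as Hoxb8. For edgeR they had the same dispersion for every gene and no differences between experiments. The Hox genes and lists were chosen with earlier results of these data known. All 10 are named. Of the partner lists, the genes with the smallest p or the highest intraclass correlation are named, and the 3 highest and 2 lowest pairs. Some genes these rules pick are not reported here. Python 3.11.15, numpy 2.4.6, pandas 2.3.3, scipy 1.17.1 and matplotlib 3.10.9 were used.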

Additional observations from a re-analysis of the deposited data

Results flagged for a closer look

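Of 24 sets of 9 experiment values examined for a value apart from the rest, 2 had one, where chance gives about 1 in 20, or 1.2 of 24. Both concern Hoxb3 in experiment 72. Its mean level there was 7.87 CPM, and the other 8 experiments lay between 1.52 and 3.62 CPM. The difference of its summed levels there, high minus low daughters, was -5.80 CPM, and the others lay between -2.32 and -0.0929 CPM.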

How the results depend on the processing

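Every alternative left 0 Hox genes called between high and low daughters and between runs. For sisters, 1 Hox gene passed with log2(CPM + 10) (Hoxa10), 1 when scored as found or not found (Hoxa7) and 1 with a 5% minimum (Hoxb8). Leaving out 1 experiment at a time gave 0 to 1. The cause was not tested. The median correlation over pairs ran from 0.0238 to 0.0631. Signs of differences inside their error turned. Between high and low daughters, divisions as block gave 0.0326 for Hoxa7, 0.0478 for Hoxa9, 0.340 for Hoxa10 and -0.0699 for Hoxb4. Those are mean sister differences of log2(CPM + 1), another scale than the sums. Run 4 alone gave 0.0940 for Hoxa9, 0.0148 for Hoxa10 and -0.122 for Hoxb4. Run 5 alone gave -0.0490 for Hoxb8. For Hoxa10, no experiment block gave 0.0465, and leaving out the division with the most Hoxb3 counts gave 0.00973. With experiments left out in turn, the differences ran from -0.0437 to 0.0114 for Hoxa9 (above 0 at 0.0114 and 0.0107 without experiments 60 and 68), from -0.125 to 0.133 for Hoxa10 (0.133, 0.0294 and 0.00961 without 69, 73 and 74) and from -0.274 to 0.840 for Hoxb8 (-0.274, -0.0814, -0.0837 and -0.185 without 60, 69, 73 and 74). Between runs they ran from -0.149 to 0.0659 for Hoxa10 (0.0645, 0.00485, 0.0659 and 0.0287 without 72, 74, 75 and 76) and from -0.160 to 0.0918 for Hoxb4 (0.0338 and 0.0918 without 60 and 77). With experiments left out, Hoxb3 ran from -0.804 to -0.682 between high and low daughters and from 0.218 to 0.964 between runs. Among intraclass correlations, Hoxa7 was -0.0529 in run 5 alone, and Hoxb4 ran from -0.0755 to 0.00715 with experiments left out. Between unrelated cells in adjacent wells they were -0.0236 for Hoxa7, -0.0247 for Hoxa9, -0.0271 for Hoxa10, -0.0281 for Hoxb3 and 0.0231 for Hoxb4. Hoxb8 ran from 0.389 to 0.501 with experiments left out, in fits added after its value was seen. A minimum of 5 counts put Hoxb8 in 4.01% of cells, Hoxb3 in 17.5% and Hoxb4 in 32.3%, so depth limits what can be said of them.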
